A study of Mus musculus with 9 samples.

Results

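The genes described here are the core of protein lipoylation and cuproptosis in MC38 cells, a mouse colon carcinoma line. They are 10 of the 16509 genes in the deposited table and were taken by gene symbol: the ferredoxin Fdx1, the lipoylation enzymes Lias, Lipt1 and Lipt2, the lipoylated proteins Dlat, Dlst and Gcsh, and the partner subunits Pdha1, Pdhb and Dld. All 10 were listed and all 10 passed the filter on low counts. RNA was sequenced in 9 libraries, 3 from each of 3 groups of cells. Ctrl cells received the vehicle, which the sample labels give as DMSO and the methods of the study as PBS. Cu-Cys cells received copper chloride with cystine. Cadict cells received a nanodrug that joins copper, cystine and the enzyme glucose oxidase, with a peptide (GE11) directed at the epidermal growth factor receptor. No dose or time of treatment is given for these libraries, and although the general methods of the study speak of independent repeats, the labels do not tie the 3 libraries of a group to separate cultures, so the p-values measure the spread between these libraries, which may be technical in part.

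Lipoate is a sulfur-bearing cofactor made inside mitochondria. An octanoyl chain from mitochondrial fatty acid synthesis is moved by Lipt2 onto Gcsh, Lias inserts sulfur with electrons that Fdx1 can supply and from its own iron-sulfur clusters, and Lipt1 passes the finished lipoyl arm to the E2 subunits of the ketoacid dehydrogenases, such as Dlat and Dlst. In cuproptosis, copper binds lipoylated proteins, above all Dlat, which aggregate while iron-sulfur proteins are lost. The core genes help to make or pass on the lipoyl arm, carry it, or encode partner subunits of its carriers. Loss of several of them, though not shown for all, protects cells from copper ionophores.

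Libraries held 17905771 to 18293056 expected counts. Levels are given as CPM, counts per 1000000 of a library size set by TMM, an edgeR scaling that chooses those sizes so that most genes do not differ. A count of 0 allows up to 3 counts, or 0.164 to 0.168 CPM by library total, for counting error only. On the TMM scale 3 counts are more than this in Cadict libraries, where 2 counts of Lipt2 in replicate 1 were 0.17 CPM. The TMM factors were 1.262 to 1.274 in Ctrl, 1.206 to 1.209 in Cu-Cys and 0.6395 to 0.6654 in Cadict libraries, whose 100 highest genes took 29.8 to 31.1% of the counts, against 17.2 to 17.4% in Ctrl. With library totals in place of TMM, the log2 fold change of Cadict against Ctrl moved, in the median over tested genes, by -0.95, from -0.13 to -1.08. The changes below were not corrected for these medians, so their size, and for some genes their sign, depends on the scaling. TMM assumes that most genes do not differ, whereas 87.7% of tested genes differed between Cadict and Ctrl (edgeR, adjusted p of at most 0.05). The part of the shift in the median in the results was not tested beyond the values given with library totals. Of 6 epithelial carcinoma markers, Epcam and Cldn7 were at 0 in every Ctrl and Cu-Cys library, and the 6 summed to 5.28 to 6.79 CPM in Ctrl, 3.83 to 4.38 in Cu-Cys and 23.7 to 25.8 in Cadict. The 5 fibroblast markers summed to 692.0 to 725.6, 402.0 to 406.7 and 177.0 to 192.6 CPM, with none at 0. Of 6 leukocyte markers, 4 were listed, and they summed to 3.05 to 3.29, 2.33 to 2.77 and 15.6 to 18.2 CPM, with Cd68 above 1 CPM and the other listed ones below it. The 3 endothelial markers summed to 1 to 1.73, 0.823 to 1.6 and 2.09 to 3.61 CPM. The part of these in the results was not tested, and in bulk RNA fewer cells of a type and less RNA per cell cannot be told apart.

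In Cadict-treated cells RNA of the enzymes that build and hand over lipoate fell. RNA of the ferredoxin, the lipoylated proteins and their partner subunits was higher than in Ctrl on the TMM scale. All levels and changes given here are of RNA, and protein was not measured in these libraries. By western blot the study reports lower FDX1 and LIAS protein with Cadict, for FDX1 the opposite direction to its RNA on this scale. It also reports that the cuproptosis inhibitor TTM reversed this loss and that DLAT protein aggregated. Dose and time are stated for the blot but not for these libraries, so they may not match. Among the RNA changes, Lipt1 was 11.3-fold, Lipt2 10.7-fold and Lias 2.07-fold lower. Pdhb was 2.9-fold, Dlst 2.66-fold and Dlat 2.28-fold higher, followed by Fdx1 (1.9-fold), Dld (1.7-fold), Pdha1 (1.55-fold) and Gcsh (1.45-fold). By the quasi-likelihood test of edgeR, with p-values over 11949 genes adjusted after Benjamini and Hochberg and a limit of 0.05, 7 of the 10 genes were higher and 3 lower, against 40.6% higher and 47.1% lower among all tested genes. At the threshold of the study, at least 2-fold with an adjusted p of at most 0.001, 3 were higher (Dlat, Dlst and Pdhb, against 20.7% of all genes) and 3 lower (Lias, Lipt1 and Lipt2, against 27.1%). The 2 groups did not overlap for any of the 10, nor for 87.5% of all tested genes, so neither count by itself sets these genes apart. With library totals, 3 genes were higher and 6 lower, against 18.1% and 73.1% of all tested genes: Dlat, Dlst and Pdhb kept the higher level, Pdha1, Dld and Gcsh turned lower and Fdx1 did not pass.

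**Figure D1:**
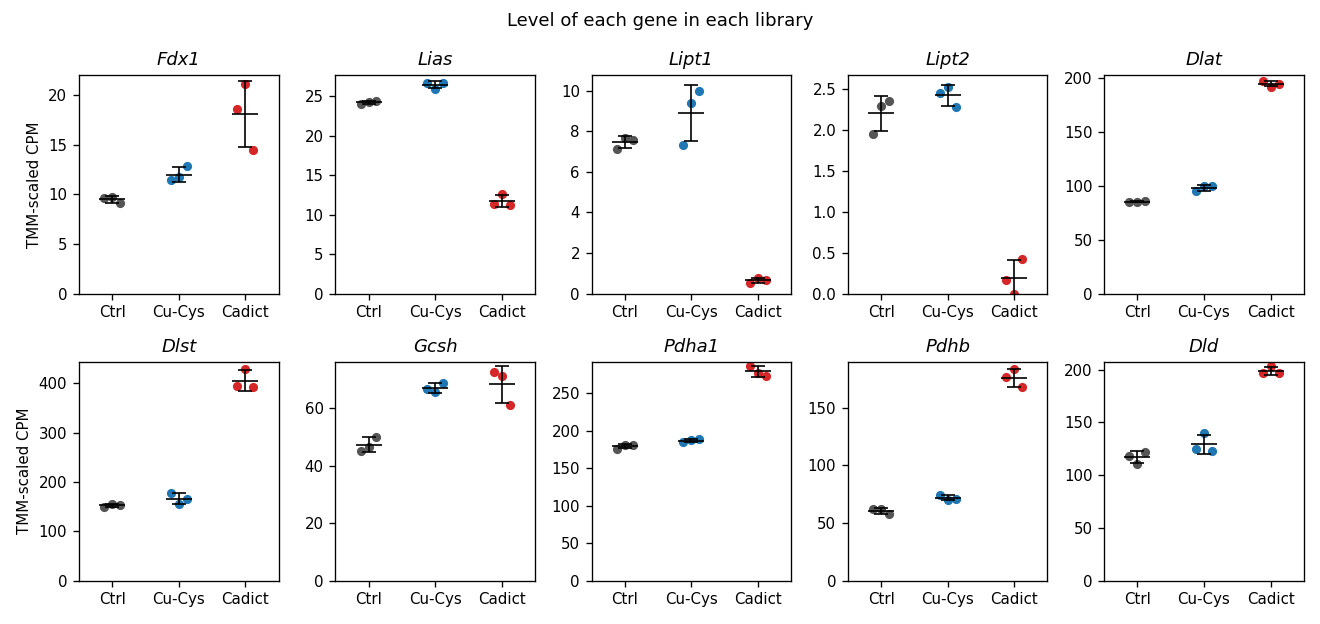
Level of each of the 10 genes in each library, as TMM-scaled CPM on linear axes that start at 0. Dots are libraries and bars are the mean ± SD of 3 libraries. Lias, Lipt1 and Lipt2 had their 3 lowest libraries in Cadict, and the other 7 genes were higher in every Cadict library than in every Ctrl library.

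Fdx1 (chr9:51943023-51963602, minus strand, GRCm38 here and below), the mitochondrial ferredoxin that carries electrons from NADPH through ferredoxin reductase, had 9.65, 9.74 and 9.11 CPM in the 3 Ctrl libraries. Cu-Cys libraries had 11.4, 11.7 and 12.8 CPM, and Cadict libraries 18.6, 21.1 and 14.5 CPM. The 3 groups did not overlap, and the Cadict libraries were the most spread (18.1 ± 3.31 CPM, SD, n = 3). The log2 fold change was 0.93 ± 0.11 (SE) for Cadict against Ctrl (edgeR, adjusted p = 1.5e-06), but -0.029 with library totals, and the expected counts of 223, 225 and 209 in Ctrl lay within those of Cadict (219, 242 and 173). For Cu-Cys against Ctrl it was 0.33 ± 0.11 (edgeR, adjusted p = 0.0236), a call that was lost without Ctrl replicate 1 (adjusted p = 0.0563), Ctrl replicate 3 (0.0819) or Cu-Cys replicate 3 (0.0983).

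Lias, the lipoyl synthase, fell in Cadict. It had 24, 24.2 and 24.4 CPM in Ctrl, 26.7, 25.9 and 26.7 CPM in Cu-Cys, and 11.3, 12.6 and 11.2 CPM in Cadict libraries. Every Cadict library lay below every library of the other groups. The log2 fold change for Cadict against Ctrl was -1.05 ± 0.07 (SE; edgeR, adjusted p = 1.7e-09), with 27.4% of all tested genes below it, and -2.01 with library totals. For Cu-Cys against Ctrl it was 0.13 (unadjusted 95% interval, here and below, 0.0088 to 0.25; adjusted p = 0.0993) and did not pass.

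Lipt1, the lipoyltransferase that delivers lipoate to the E2 subunits, fell in Cadict to a few counts per library. Its expected counts were 165, 177 and 174 in Ctrl, 159, 205 and 219 in Cu-Cys, and 6, 9 and 8 in Cadict libraries. On the CPM scale these were 7.14, 7.66 and 7.59, then 7.34, 9.37 and 9.99, then 0.51, 0.784 and 0.672. The Cu-Cys libraries overlapped those of Ctrl, and the Cadict libraries lay far below both. Cadict differed from Ctrl on the log2 scale by -3.50 ± 0.23 (SE; edgeR, adjusted p = 6.0e-10), and 2.28% of all tested genes fell below it. From the summed counts, 516 in Ctrl and 23 in Cadict, Lipt1 was 11.4-fold lower with TMM sizes (exact 95% interval 7.52 to 18.2) and 22.1-fold lower by library totals (14.6 to 35.2), for counting error only. Cu-Cys gave 0.25 (95% interval 0.035 to 0.47; adjusted p = 0.0771).

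Lipt2, the octanoyltransferase that starts the pathway, also fell, from a lower level. Its expected counts were 45, 53 and 54 in Ctrl, 53, 55 and 50 in Cu-Cys, and 2, 0 and 5 in Cadict libraries. Ctrl libraries had 1.95, 2.29 and 2.35 CPM, Cu-Cys libraries 2.45, 2.52 and 2.28 CPM, and Cadict libraries 0.17, 0 and 0.42 CPM, of which the first and second rest on fewer than 3 counts. The log2 fold change for Cadict against Ctrl was -3.42 ± 0.42 (SE; edgeR, adjusted p = 1.3e-06), and leaving out one library at a time gave -4.58 to -2.87. The summed counts, 152 against 7, put Lipt2 11-fold lower with TMM sizes (exact 95% interval 5.23 to 27.9), so the size of this fall is known only roughly. Cu-Cys gave 0.13 (95% interval -0.26 to 0.53; adjusted p = 0.621).

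The positions of these 3 genes bear on how their reads were counted, since no source used here says whether strand was kept. Lipt1 (chr1:37871738-37876228, plus strand) overlaps Mitd1 on the other strand by 1428 bases. Mitd1, named here for its position, went from 22.5 ± 1.96 to 8.29 ± 1.01 CPM in Cadict (log2 fold change -1.44 ± 0.10 SE; edgeR, adjusted p = 2.3e-09). Lipt2 (chr7:100159277-100160931, plus strand) overlaps the predicted gene Gm51452 by 900 bases. Lias (chr5:65391497-65410423, plus strand) shares no bases with a neighbour, but starts 65 bases from the start of Rpl9, a gene of the large ribosomal subunit that is read the other way. Rpl9 rose from 374.7 ± 4.77 to 1780 ± 332.2 CPM (log2 fold change 2.25 ± 0.10 SE; edgeR, adjusted p = 6.2e-12), and 1.29 with library totals, while Lias fell. Of the 50-base stretches of Rpl9 transcripts, 18.5% also occur, read in the same direction, in transcripts of other annotated genes. For Lias, Lipt1 and Lipt2 none do. Stretches on the other strand were not searched, so bases that Lipt1 shares with Mitd1 could not be found this way.

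Dlat (chr9:50634633-50659780, minus strand), the E2 subunit of the pyruvate dehydrogenase complex and the lipoylated protein most tied to cuproptosis, rose in both treatments. Its levels were 85, 85.4 and 86.3 CPM in Ctrl, 95.3, 100.1 and 100.1 CPM in Cu-Cys, and 197.5, 192.3 and 195.0 CPM in Cadict libraries. The 3 groups did not overlap. Cadict differed from Ctrl by 1.19 ± 0.05 on the log2 scale (SE; edgeR, adjusted p = 1.2e-12), by 0.23 with library totals and by -0.11 in limma on deposited TPM, where the direction turned. The Cu-Cys difference was 0.20 ± 0.05 (edgeR, adjusted p = 0.00237).

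Dlst (chr12:85110822-85134091, plus strand), the E2 subunit of the 2-oxoglutarate dehydrogenase complex, was higher in Cadict under each scaling tried. Ctrl libraries had 149.0, 155.0 and 152.6 CPM, Cu-Cys libraries 177.3, 154.7 and 164.5 CPM, and Cadict libraries 394.7, 429.8 and 391.6 CPM. One Cu-Cys library lay within the Ctrl range, and no Cadict library came near either group. The log2 fold change for Cadict against Ctrl was 1.41 ± 0.06 (SE; edgeR, adjusted p = 2.1e-12) and 0.46 with library totals, and on TPM it was 0.10 and did not pass. Cu-Cys gave 0.12 (95% interval 0.0081 to 0.23; adjusted p = 0.1). Dlst overlaps Prox2 by 64 bases.

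Gcsh (chr8:116981967-116993498, minus strand), the lipoylated H protein of the glycine cleavage system, was the core gene with the largest change in Cu-Cys. It had 45.1, 46.5 and 50.1 CPM in Ctrl, 66.5, 65.5 and 68.8 CPM in Cu-Cys, and 72.7, 71.2 and 61 CPM in Cadict libraries. Both treated groups lay above Ctrl and overlapped each other. Cu-Cys differed from Ctrl by 0.50 ± 0.07 on the log2 scale (SE; edgeR, adjusted p = 3.1e-05), and 95.2% of all tested genes lay below it. Cadict differed from Ctrl by 0.53 ± 0.07 (edgeR, adjusted p = 2.6e-06), but by -0.42 with library totals. Between Cadict and Cu-Cys the TMM difference was 0.029 (95% interval -0.10 to 0.16; adjusted p = 0.697), and it was -0.86 with library totals.

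Pdhb (chr14:8165991-8173303, minus strand), the beta subunit of the pyruvate dehydrogenase E1 enzyme, had the largest rise of the 10 genes in Cadict. Ctrl libraries had 62.4, 61.9 and 57.7 CPM, Cu-Cys libraries 74.1, 70 and 71 CPM, and Cadict libraries 176.7, 183.0 and 167.6 CPM. The groups did not overlap. Against Ctrl, the log2 fold change in Cadict was 1.53 ± 0.05 (SE; edgeR, adjusted p = 4.0e-13), above 87.9% of all tested genes, and 0.58 with library totals. It was 0.24 ± 0.05 for Cu-Cys against Ctrl (edgeR, adjusted p = 0.00239). Of the 50-base stretches of its transcripts, 10.9% also occur in 8 other annotated genes, so part of its reads could have been shared.

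Pdha1 (chrX:160122219-160138430, minus strand), the alpha subunit of the same E1 enzyme and the site of its control by phosphorylation, moved less. Its levels were 176.0, 181.3 and 181.7 CPM in Ctrl, 184.6, 187.7 and 188.7 CPM in Cu-Cys, and 286.9, 277.7 and 273.2 CPM in Cadict libraries. Cadict stood above Ctrl by 0.64 ± 0.05 on the log2 scale (SE; edgeR, adjusted p = 1.6e-09), turning to -0.32 with library totals. For Cu-Cys it was 0.058 (95% interval -0.03 to 0.15; adjusted p = 0.312), although the groups did not overlap. Pdha1 overlaps Map3k15 and the predicted gene Gm39547.

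Dld (chr12:31331562-31351471, minus strand), the E3 dehydrogenase that all of these complexes share, had 118.6, 110.7 and 122.3 CPM in Ctrl, 124.6, 139.9 and 123.3 CPM in Cu-Cys, and 197.1, 203.1 and 196.6 CPM in Cadict libraries. The Cadict libraries were the highest, and the Cu-Cys libraries lay just above those of Ctrl. On the log2 scale Cadict stood above Ctrl by 0.76 ± 0.06 (SE; edgeR, adjusted p = 4.2e-09), turning to -0.19 with library totals. For Cu-Cys it was 0.14 (95% interval 0.029 to 0.25; adjusted p = 0.0573).

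Copper and cystine without the nanodrug thus gave small differences. In Cu-Cys against Ctrl, 4 of the 10 genes were higher (Gcsh, Fdx1, Pdhb and Dlat) and 0 lower in edgeR's test, against 22.6% higher and 22.4% lower among all tested genes. None of the 10 was at least 2-fold changed at an adjusted p of at most 0.001, as against 0.167% of all genes higher and 1.47% lower, and 7 had groups that did not overlap, as against 61.2%. The intervals given above, which are somewhat too narrow, leave room for changes of up to 0.53 or a little more on the log2 scale in the 6 genes that did not pass. In the median the 10 genes were at 0.17 on the log2 scale, and all tested genes at 0.0067.

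The nanodrug against its copper and cystine components alone addressed what Cadict adds to Cu-Cys. Glucose oxidase, the GE11 peptide and any difference in dose or uptake enter this comparison together and cannot be told apart. In Cadict against Cu-Cys, 6 genes were higher and 3 lower, against 40.3% and 45.6% of all tested genes, and the groups did not overlap for 9 of the 10, against 85.0%. With library totals, 2 of the 10 were higher and 7 lower, against 17.3% and 72.0%. At the threshold of the study, Dlst and Pdhb were higher (1.29 for each on the log2 scale; 18.6% of all genes were higher) and Lias, Lipt1 and Lipt2 lower (-1.18, -3.75 and -3.56; 23.6% of all genes were lower). Gcsh did not pass. Both comparisons with Cadict share its libraries, and both comparisons with Ctrl share the Ctrl libraries, so their values are not independent.

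**Figure D2:**
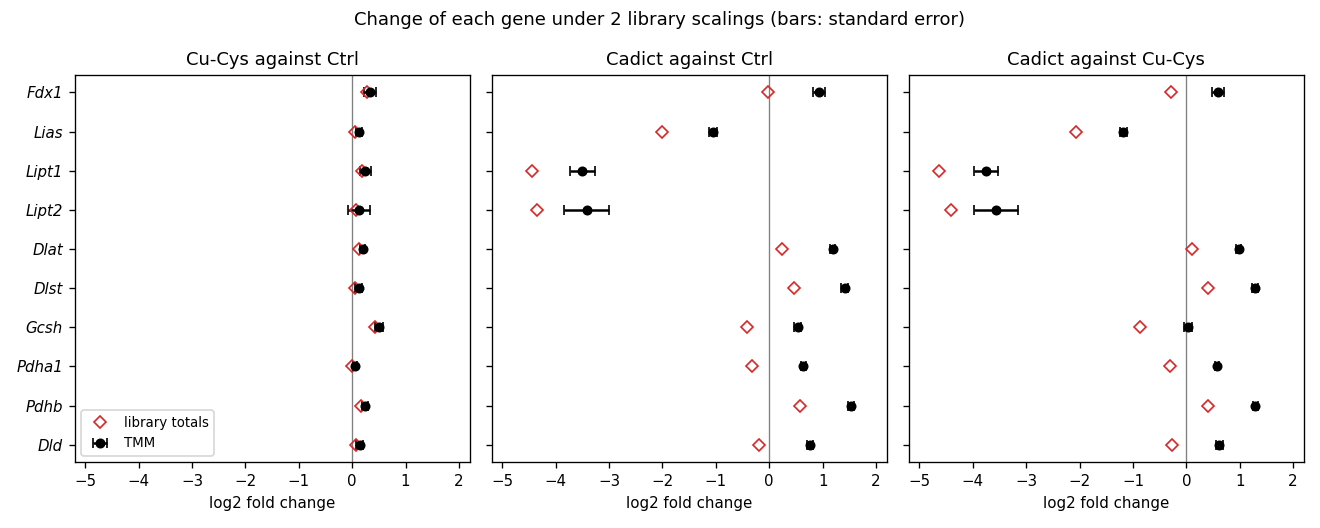
Log2 fold change of each gene in the 3 comparisons. Black dots with bars are TMM values with their standard error, and open red diamonds are values with library totals. Lias, Lipt1 and Lipt2 lay below 0 in Cadict under both scalings and Dlat, Dlst and Pdhb above it, while Fdx1, Gcsh, Pdha1 and Dld crossed it.

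A ratio of 2 genes within one library does not depend on library scaling, and 11 such ratios were compared over the 3 pairs of groups (33 exact two-sided permutation tests, 3 libraries against 3, for which the smallest possible p is 0.1 and none could pass). The ratio of Lias to Fdx1 was lower in Cadict. Its log2 value, with 0.5 added to each count, was 1.31, 1.31 and 1.42 in Ctrl, 1.22, 1.15 and 1.06 in Cu-Cys, and -0.72, -0.75 and -0.38 in Cadict libraries. The difference between Cadict and Ctrl was -1.96 ± 0.12 (SE), a 3.89-fold lower ratio, with no overlap (exact permutation p = 0.1, adjusted 0.138). This difference is the same under TMM and library totals.

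Relative to the synthase, both transferases were lower in Cadict. The log2 ratio of Lipt1 to Lias was -1.74, -1.66 and -1.68 in Ctrl and -4.36, -3.93 and -3.97 in Cadict libraries, a difference of -2.39 ± 0.14 (SE). Lipt2 to Lias differed by -2.72 ± 1.06, where Lipt2 had at most 5 counts per Cadict library. Between the transferases the ratio of Lipt1 to Lipt2 overlapped (0.33 ± 1.10), so no difference between their falls was detectable at this depth.

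Within the pyruvate dehydrogenase complex the ratios between subunits also differed between groups. The log2 ratio of Pdhb to Pdha1, the 2 subunits of one enzyme, was -1.50, -1.55 and -1.65 in Ctrl, -1.32, -1.42 and -1.41 in Cu-Cys, and -0.70, -0.60 and -0.71 in Cadict libraries. Cadict was 0.90 ± 0.06 above Ctrl and Cu-Cys 0.18 ± 0.06 above it, with no overlap among the 3 groups. Dlat to Pdha1 was 0.55 ± 0.02 higher in Cadict and 0.15 ± 0.02 higher in Cu-Cys than in Ctrl, again without overlap. Relative to the carriers, the shared E3 subunit was lower. Dld to Dlst differed by -0.65 ± 0.06 and Dld to Dlat by -0.42 ± 0.05 between Cadict and Ctrl.

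Gcsh to Dlst lay on opposite sides of Ctrl in the 2 treatments. It was 0.39 ± 0.07 higher in Cu-Cys and 0.88 lower in Cadict than in Ctrl (a difference of -0.88 ± 0.08), with every library of each group apart. In all, 10 of the 11 ratios had no overlap between Cadict and Ctrl, 4 between Cu-Cys and Ctrl, and 10 between Cadict and Cu-Cys. Each of these had an exact permutation p of 0.1 (adjusted 0.138). Among single tested genes the groups did not overlap for 87.5%, 61.2% and 85.0% in these comparisons. The share among other pairs of genes was not computed, so these counts by themselves do not set the pairs apart.

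**Figure D3:**
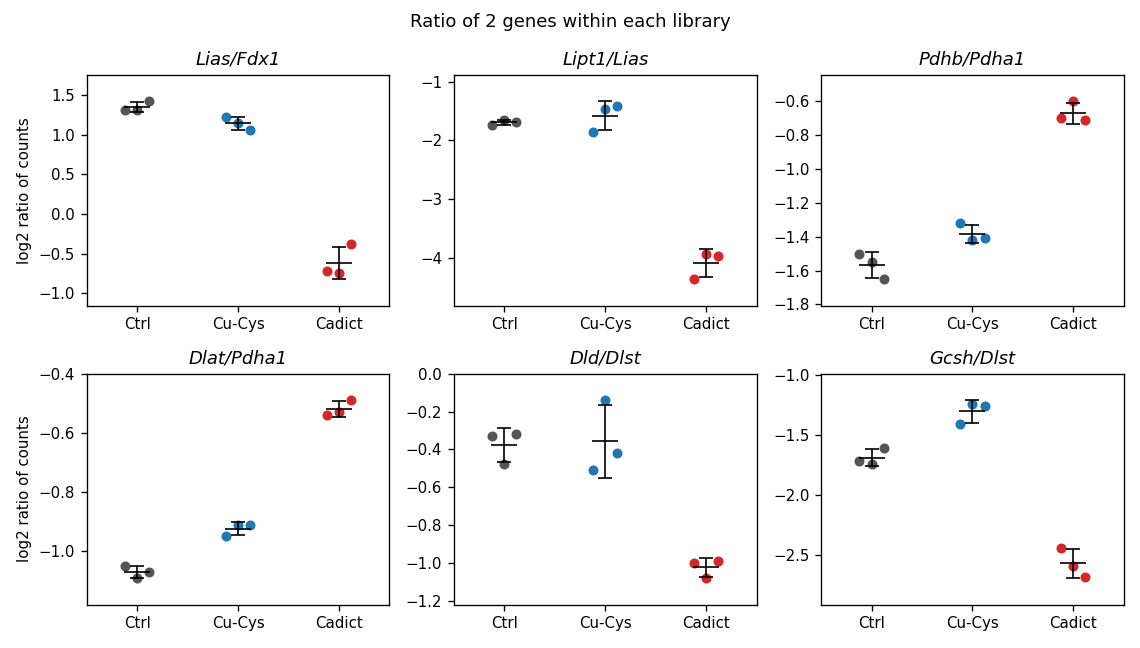
Log2 ratio of the counts of 2 genes in the same library for 6 of the 11 pairs, each panel on its own axis. Dots are libraries and bars the mean ± SD of 3 libraries. For Lias to Fdx1 all Cadict libraries lay below all Ctrl libraries, and Gcsh to Dlst lay above the Ctrl libraries in Cu-Cys and below them in Cadict.

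Levels of different genes were compared per transcript length, on the deposited FPKM scale, within a group. In Ctrl, Pdha1 was the highest (90.2 ± 1.29 FPKM, SD, n = 3), then Dlst (79.1 ± 1.23) and Dld (76.3 ± 4.04), whose libraries overlapped, then Pdhb (66.7 ± 2.73) and Gcsh (65.4 ± 3.74), which also overlapped. Dlat stood apart at 29.3 ± 0.2 FPKM, below its partner subunits. The ferredoxin and the enzymes of lipoylation were the lowest, in the order Fdx1 (13 ± 0.516), Lias (12 ± 0.0681), Lipt1 (7.87 ± 0.363) and Lipt2 (3.11 ± 0.306), with no overlap between neighbours.

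The order changed with treatment mainly at the top. In Cu-Cys, Gcsh was in second place at 88 ± 1.6 FPKM, and neighbours among the 5 highest genes, from Pdha1 (89.3) to Pdhb (74.8), overlapped. In Cadict, Dlst (108.2 ± 3.59) and Pdhb (98.6 ± 2.77) were above Pdha1 (72 ± 2.19) and Dld (66.4 ± 0.242), with no overlap. At the bottom, Lias was at 2.98 ± 0.136 FPKM, and Lipt1 (0.35 ± 0.0866) and Lipt2 (0.143 ± 0.156) overlapped.

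To show what lies in front of a gene that fell and of one that rose, the 250 bases upstream of the start of Lipt2 and of Dlat were read from RefSeq (GRCm38.p6). They lie at chr7:100159027-100159276 (plus strand) and chr9:50659781-50660030 (minus strand). Capitals mark the GC box GGGCGG and the CCAAT box CCAAT, each searched on both strands, so that CCGCCC and ATTGG mark matches on the other strand.
Lipt2: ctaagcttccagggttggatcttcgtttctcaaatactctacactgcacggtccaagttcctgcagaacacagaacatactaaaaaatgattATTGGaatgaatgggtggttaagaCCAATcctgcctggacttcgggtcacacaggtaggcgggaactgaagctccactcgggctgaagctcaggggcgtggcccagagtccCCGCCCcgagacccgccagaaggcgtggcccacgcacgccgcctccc
Dlat: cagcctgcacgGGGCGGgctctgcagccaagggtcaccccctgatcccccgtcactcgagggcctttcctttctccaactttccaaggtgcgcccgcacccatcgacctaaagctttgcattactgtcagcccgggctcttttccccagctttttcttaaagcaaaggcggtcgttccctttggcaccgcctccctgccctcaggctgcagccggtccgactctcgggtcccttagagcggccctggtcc
The Lipt2 window held 1 GC box and 2 CCAAT boxes, and the Dlat window 1 GC box and 0 CCAAT boxes. Windows were found for all 10 genes, 3 of them for Lipt1. Where RefSeq lists more than one start, a window can lie inside the span of the gene, as did that of Pdhb, 2 of those of Lipt1 and part of that of Dlst. GC boxes occurred in the windows of 7 genes (Fdx1, Lipt1, Lipt2, Dlat, Dlst, Pdhb and Gcsh) and in 32.7% of the 32851 windows of 250 bases in the table. CCAAT boxes occurred in those of 5 genes (Lipt1, Lipt2, Pdhb, Dld and Gcsh) and in 33.8% of all windows. Genes that fell and genes that were higher thus both held them. A gene was counted if any of its windows held the box, whereas the shares are of single windows, so counts and shares are in unlike units.

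The stretch between Lias and Rpl9, read on the Lias strand (chr5:65391432-65391496), is given whole because the genes on its 2 sides moved in opposite directions in Cadict.
Lias: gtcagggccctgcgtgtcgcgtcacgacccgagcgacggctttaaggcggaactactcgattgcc
It is 65 bases long, 64.6% of them G or C, and held 0 GC boxes and 0 CCAAT boxes.

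Genes that feed lipoate synthesis were lower in Cadict in part of their lists. These lists and those below were chosen with earlier results of these data known. Mitochondrial fatty acid synthesis makes the octanoyl chain, and of its 6 tested genes 4 were lower and 2 higher (against 47.1% and 40.6% of all tested genes; median log2 fold change -1.67, against -0.13). Mcat, which loads malonyl groups, had 16.6, 13.3 and 15.3 CPM in Ctrl and 1.36, 1.92 and 2.02 CPM in Cadict libraries, a log2 fold change of -3.09 ± 0.16 (SE; edgeR, adjusted p = 3.1e-11). The condensing enzyme Oxsm (-2.17 ± 0.15) and Cbr4 (-1.27 ± 0.13) also fell. The dehydratase Htd2 (-2.07 ± 0.69; edgeR, adjusted p = 0.0109) had 12, 18 and 20.9 expected counts in Ctrl and 0, 5.59 and 0 in Cadict libraries. Its groups overlapped (0.519 CPM in Ctrl replicate 1 and 0.523 in Cadict replicate 2), so its lower level rests on few counts. With library totals 5 of the 6 were lower and 0 higher, against 73.1% and 18.1% of all tested genes.

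Around the ferredoxin and the iron-sulfur clusters the directions were mixed. Ferredoxin reductase, Fdxr, which passes electrons to Fdx1, fell by 0.87 on the log2 scale, and the other ferredoxin, Fdx2, rose by 1.14, or 0.19 with library totals without passing. Of 6 late iron-sulfur factors, 2 were higher and 3 lower, near the 40.6% and 47.1% of all tested genes (median -0.21). With library totals 0 were higher and 4 lower, against 18.1% and 73.1% of all tested genes. Iba57, which helps mature the 4Fe-4S proteins, had the largest fall among them (-2.51 ± 0.23; edgeR, adjusted p = 4.2e-08), from 5.71 ± 1.06 to 0.996 ± 0.275 CPM. Nfu1, the carrier that serves Lias, was higher by 0.85 and Glrx5 by 0.86, and both turned to about -0.10 with library totals without passing. Isca2 was lower by 0.75 on the log2 scale. Sirt4, a mitochondrial lipoamidase, was lower, with a log2 fold change of -0.91 ± 0.24 (adjusted p = 0.00202).

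Kinases that switch off lipoyl-dependent dehydrogenases fell. Of the other pyruvate dehydrogenase genes, 7 were tested, 5 were lower and 1 higher, against 47.1% and 40.6% of all tested genes (median -1.10), and with library totals 7 were lower, against 73.1%. Pdk1, a kinase that blocks Pdha1, had 85.4, 84.5 and 90.6 CPM in Ctrl, 87.2, 95.2 and 91 CPM in Cu-Cys, and 14.7, 10.3 and 11.2 CPM in Cadict libraries. This was a log2 fold change of -2.85 ± 0.09 (SE; edgeR, adjusted p = 1.6e-13). Pdk2 gave -4.41 ± 0.30, from 6.19 ± 0.663 to 0.287 ± 0.182 CPM, and was also lower in Cu-Cys (-0.72 ± 0.15; edgeR, adjusted p = 0.00106). The phosphatase genes Pdpr (-1.39 ± 0.05) and Pdp1 (-1.10 ± 0.10) fell as well.

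The branched-chain ketoacid dehydrogenase, another complex with a lipoylated E2, had 4 of 5 tested genes lower and 0 higher, against 47.1% and 40.6% of all tested genes (median -1.39), and 5 lower with library totals, against 73.1%. Its kinase Bckdk went from 55 ± 1.16 to 7.2 ± 0.684 CPM (log2 fold change -2.93 ± 0.08; edgeR, adjusted p = 2.9e-14). Its phosphatase Ppm1k (-1.59 ± 0.21), its E2 gene Dbt (-1.39 ± 0.10) and its E1 gene Bckdha (-0.49 ± 0.13) fell too, so Dbt moved opposite to the E2 genes Dlat and Dlst on the TMM scale. Of the other oxoglutarate and oxoadipate dehydrogenase genes, 1 of 4 was higher and 3 lower, against the same 40.6% and 47.1% (median -0.54). These were Mrps36, an E3 adaptor (0.85, or -0.10 with library totals without passing), Ogdhl (-1.19), Dhtkd1 (-0.86) and Ogdh (-0.21). Amt, the glycine cleavage enzyme that works with Gcsh, fell from 1.98 ± 0.316 to 0.34 ± 0.143 CPM (-2.51 ± 0.33; edgeR, adjusted p = 3.3e-06).

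The tricarboxylic acid cycle, which the lipoylated dehydrogenases supply, had 11 of 15 genes higher and 2 lower (median 0.54), against 40.6% and 47.1% of all tested genes. With library totals 2 were higher and 10 lower (median -0.42), against 18.1% and 73.1%. Citrate synthase, Cs, had 302.2, 309.6 and 299.7 CPM in Ctrl and 685.3, 673.4 and 692.7 CPM in Cadict libraries, a log2 fold change of 1.17 ± 0.05 (SE; edgeR, adjusted p = 1.4e-12) and of 0.22 with library totals. Sdhb, a subunit of succinate dehydrogenase, gave 1.05 and Mdh2, the mitochondrial malate dehydrogenase, 1.04, and with library totals these were 0.09 and 0.084 without passing.

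Of 5 tested regulators from the cuproptosis screens, 4 were higher and 1 lower (median 0.18), against 40.6% and 47.1% of all tested genes. With library totals 1 was higher and 3 lower, against 18.1% and 73.1%. The metal-sensing factor Mtf1 was higher (1.13 ± 0.06; edgeR, adjusted p = 7.2e-11; 0.18 with library totals). The copper exporters parted: Atp7a was higher (1.05 ± 0.12, and 0.097 with library totals, which did not pass) and Atp7b lower (-1.55 ± 0.26, and -2.49 with library totals). The importer Slc31a1 was higher by 0.18, turning to -0.77 with library totals.

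In Cu-Cys against Ctrl, where 22.6% of all tested genes were higher and 22.4% lower, the late iron-sulfur factors had 3 of 6 higher, the tricarboxylic acid cycle 3 of 15 higher and 1 lower, the other pyruvate dehydrogenase genes 1 of 7 higher and 3 lower, and the branched-chain complex 2 of 5 lower. Mitochondrial fatty acid synthesis had 1 of 6 higher and 1 lower, the oxoglutarate and oxoadipate genes 1 of 4 lower, and the screen regulators 1 of 5 higher. The ferredoxin partners, Sirt4 and Amt did not pass. Iba57 was higher in Cu-Cys (0.40 ± 0.13; edgeR, adjusted p = 0.0196) and lower in Cadict, each against the same Ctrl libraries.

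**Figure D4:**
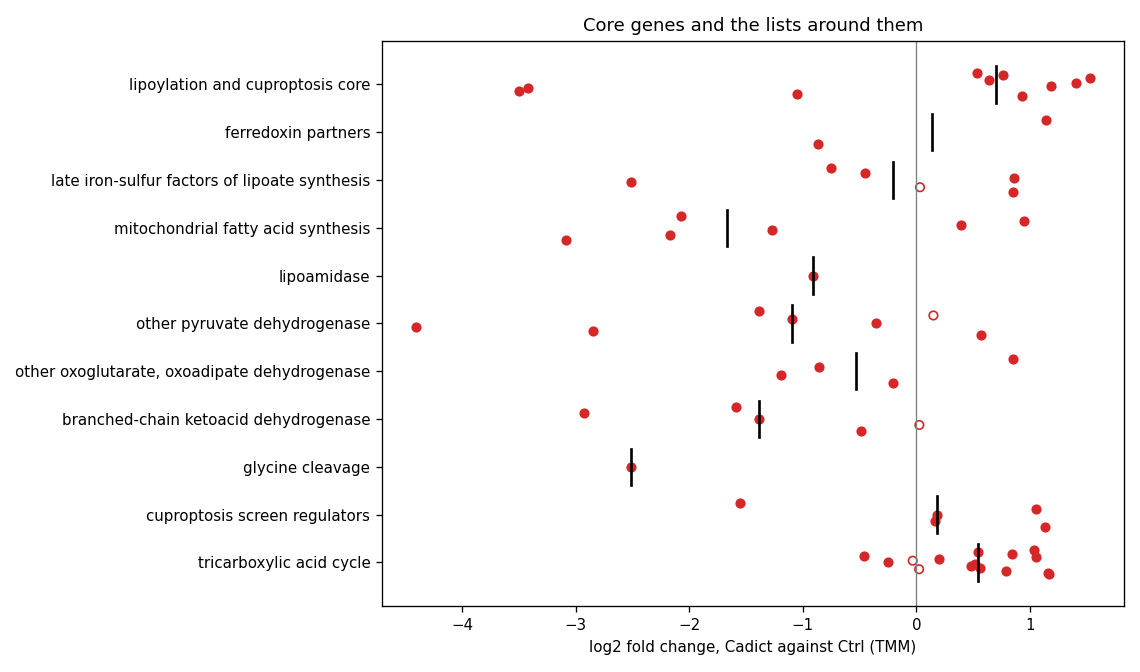
Log2 fold change for Cadict against Ctrl (TMM) of each tested gene, by list. Filled dots passed edgeR's test at an adjusted p of at most 0.05, open dots did not, and black lines are list medians. The core genes split into 3 below -1 and 7 above 0.5, mitochondrial fatty acid synthesis had its median at -1.67 and the tricarboxylic acid cycle at 0.54.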

How the data were processed

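RNA of MC38 cells was measured in 9 libraries. The authors deposited, for 16509 genes, an expected count, FPKM, TPM and a signal value (the expected count divided by a size factor per library) per library. The 12 columns of group averages were not used. Columns named CC and CCGE were taken as Cu-Cys and Cadict, the latter inferred from its components. The submitters' processing notes list HISAT2 2.1.0, Bowtie2 2.3.4.3, RSEM 1.3.1, GRCh38.p13 and GRCm39, without roles, and RSEM counts need not be whole (9.77% of values were not). The labels name a column kit, oligo(dT) selection and DNA nanoballs, whereas the methods of the study name TRIzol and Illumina sequencing. Coordinates here are those of GRCm38 and were matched by symbol.

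Expected counts were rounded, kept by filterByExpr, scaled by TMM and fitted in R 4.3.3 with edgeR 4.0.16 (quasi-likelihood test, 3 groups, no covariate). The p-values were adjusted by Benjamini-Hochberg over 11949 genes and called at 0.05. Alternatives were the threshold of the study, DESeq2 1.42.0 size factors and Wald test, library totals, other filters, limma 3.58.1 on log2(FPKM or TPM + 1 or 0.1), the replicate number as a block, and leaving out each library. Same-numbered libraries of different groups correlated between -0.197 and 0.167 over 8551 genes, so numbers were not taken as pairs. The procedure was run on simulated counts in which few genes changed, as many up as down and in Cadict only. In the data 87.7% of tested genes passed for Cadict against Ctrl, so the simulation does not test the scaling of the Cadict libraries. Within-library ratios added 0.5 to each count. The core genes and the lists around them were chosen with earlier results of these data known, and from each list up to 4 tested genes with the largest absolute change in Cadict against Ctrl are named. One gene that this rule selects is not reported here. Neighbouring genes were added for their position. The genes Hsd17b8, Pdha2, Cdkn2a, Cd3e and Adgre1 of these lists were not analysed here, and Pdk4 and Gldc did not pass the filter.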

Additional observations from a re-analysis of the deposited data

How the results depend on the processing

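At the threshold of the study, 5707 genes in place of 10484 passed for Cadict against Ctrl, 196 in place of 5381 for Cu-Cys against Ctrl and 5041 in place of 10263 for Cadict against Cu-Cys, and of the 10 core genes 6, 0 and 5 in place of 10, 4 and 9. For Cu-Cys against Ctrl, 7 core genes passed with DESeq2 size factors and 1 with limma on TPM at either pseudocount, and 3 to 7 when one library was left out (7 without Cadict replicate 2). Library totals put 2161 genes higher and 8730 lower for Cadict against Ctrl, in place of 4857 and 5627, 1846 and 3448 for Cu-Cys against Ctrl, in place of 2701 and 2680, and 2062 and 8598 for Cadict against Cu-Cys, in place of 4819 and 5444. Log2 fold changes that turned negative for Cadict against Ctrl were Fdx1 (-0.029 with library totals, -0.056 in limma on FPKM, -0.39 on TPM, pseudocount 1), Pdha1 (-0.32, -0.32, -0.66), Dld (-0.19, -0.20, -0.54), Gcsh (-0.42, -0.44, -0.78) and, on TPM, Dlat (-0.11). For Cadict against Cu-Cys they were Fdx1 (-0.29, -0.29, -0.56), Pdha1 (-0.31, -0.31, -0.58), Dld (-0.26, -0.26, -0.54), Gcsh (-0.86, -0.86, -1.13) and, on TPM, Dlat (-0.17), and Gcsh was at -0.02 without Cadict replicate 1 and -0.0046 without Cadict replicate 2 (range over libraries left out, -0.02 to 0.1). For Cu-Cys against Ctrl they were Pdha1 (-0.011, -0.013, -0.085) and, on TPM, Lias (-0.015), Lipt2 (-0.0089), Dlst (-0.025) and Dld (-0.0034). Library totals, FPKM and TPM do not rescale the Cadict libraries as TMM does, whereas the fits with a library left out keep TMM. The cause of the turns in direction was not tested. Lias, Lipt1 and Lipt2 stayed lower in Cadict than in both other groups, and passed, under every alternative in which they were tested. Keeping only genes with 10 counts or more in each library removed Lipt1 and Lipt2, which left 8, 4 and 7 core genes passing in the 3 comparisons. With the replicate number as a block, 10, 4 and 9 core genes passed and 10417, 5141 and 10188 genes in all, and no call on a core gene changed. The within-library ratios kept their direction or stayed within the spread between libraries in each alternative run, although the Lipt2 ratios with Cadict had none on FPKM, where Lipt2 is 0 in Cadict replicate 2. Depth limits Lipt2 most, with 7 counts in 3 Cadict libraries.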
